A study of Homo sapiens with 15 samples.

Results

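The 39 genes described here encode enzymes and regulators of lipid synthesis under control of the sterol regulatory element-binding proteins (SREBPs). They were picked by gene symbol out of 20806 entries in count tables, which were scaled per library. The fatty acid arm has 16 genes, the sterol arm 18 and the regulators 5. The 39 genes stood on 40 entries, because SREBF1 has a long entry, used here, and a short entry.

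RNA was sequenced in 15 libraries of C4-2, a castration-resistant prostate cancer line. The submitters call the 5 lines isogenic, and each has 3 libraries. KO_S404A, KO_S47A and KO_WT are knockouts of ATGL, a triglyceride lipase encoded by PNPLA2, that carry the S404A, the S47A or the wild-type ATGL protein. KO is the knockout with no protein added and Scramble its control, and the submitters describe S47A as without lipolytic activity. The cells of all 5 lines grew in medium with 5 mM glucose and 5% dialyzed serum. Each genotype is 1 line, and the sources used here do not say whether it is a clone or a pool, nor which promoter drives the added proteins. The labels do not say whether libraries of a line came from separate cultures, so the p-values cover only the spread among these libraries, and that spread may be technical.

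SREBPs are made as precursors in the membrane of the endoplasmic reticulum, where SCAP binds them. When membrane sterol is low, SCAP carries the precursor to the Golgi, and proteases release the part that enters the nucleus. When sterol is ample, INSIG proteins hold SCAP back. SREBF1 encodes the SREBP that acts mainly on fatty acid genes, and SREBF2 the SREBP that acts mainly on sterol genes. In prostate cancer the pathway is known for high FASN.

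Counts in genes totalled 40846694 to 64345775 per library. PNPLA2 averaged 413 ± 98.3 CPM in KO_S404A, 129 ± 30.6 CPM in KO_S47A, 220 ± 18.1 CPM in KO_WT, 11.3 ± 2.00 CPM in KO and 48.9 ± 4.76 CPM in Scramble (SD, n = 3 each). CPM are the usual counts scaled to library size, here with the TMM method. The added ATGL transcripts stood at levels that differ between the 3 addback lines and exceed that of Scramble. The 7 prostate epithelial markers, among them KLK2 and FOLH1, summed to 3116 to 4343 CPM, with 0 of the 7 at 0 in every library. Of these KLK2 fell against Scramble in KO_S404A (log2 fold change −0.94, adjusted p = 0.00124), KO_S47A (−0.73, 0.00676), KO_WT (−0.69, 0.00929) and KO (−0.89, 0.00193), and TMPRSS2 fell in KO_S404A (−0.74, 0.0286) and KO (−0.71, 0.0359). COL1A1, a fibroblast marker, rose in KO_S47A against Scramble (0.76, 0.0389). LUM, the other fibroblast marker tested, averaged lower in KO_S47A (0.0125 CPM) than in Scramble (0.1285 CPM) and was not called. Both prostate genes and COL1A1 moved in comparisons in which members did, and their part in the members' differences was not tested. Adipocyte markers summed to 0 to 0.311 CPM, blood markers to 0.0390 to 0.319 CPM and hepatocyte markers to 0.254 to 1.07 CPM. Fibroblast markers summed to 9.86 to 23.2 CPM and endothelium markers to 5.07 to 14.7 CPM. COL1A1 made up nearly all of the fibroblast sum, with COL1A2, DCN and LUM at no more than 0.338 CPM in any library. VWF made up nearly all of the endothelium sum, with PECAM1 and CDH5 at no more than 0.0207 CPM.

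In KO_S47A, KO_WT and Scramble the libraries numbered 1 and 2 were close to each other (chi-square per degree of freedom 8.11 to 9.95), and the library numbered 3 stood apart from both (70.9 to 182). In KO the separation was weak, with 40 between libraries 1 and 2, 62.0 between 1 and 3 and 46.98 between 2 and 3. Over all lines, the libraries numbered 3 differed from those numbered 1 and 2 in 46.1% of the 14246 genes tested. The sources used here do not say what the number marks. KO_S404A library 2 stood about as far from library 1 as from library 3 of its line (chi-square of 148 and 140 per degree of freedom). In 7 of the 9 comparisons between lines, libraries of the same number deviated together. A shift shared by the libraries numbered 3 can produce this, so a pairing of numbers 1 and 2 is not shown. In these 7 a fit with the replicate number as a term (the replicate block) is given beside the fit without it wherever a call changed. The block fit spans all 15 libraries, KO_S404A included, and takes the shift of each number as the same in the 5 lines. Among the markers the block added VWF, higher (log2 fold change 0.75, adjusted p = 0.000457), and HOXB13 and TMPRSS2, lower, in KO_S47A against Scramble. Against Scramble it also added KRT18, lower, in KO_WT and KO, and STEAP2, lower, in KO. In KO_S47A against KO it added VWF (0.53, 0.00685), COL1A1 (0.55, 0.0142) and STEAP2, higher, and HOXB13, lower. The part of these markers in the members' differences was not tested.

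Promoter sequence was available in RefSeq for 35 of the 39 genes, as windows of 300 bases that run from 250 before to 50 after the start. The windows of the called regulators and enzymes that had an entry are printed here, since these genes carry the differences between lines described in the next paragraphs. Capitals mark the sterol regulatory element TCACNCCAC, the E-box CACGTG, the CCAAT box CCAAT and the GC box GGGCGG, searched on both strands. Sequences are from build GRCh38.p14, each on the strand of its gene.
SREBF2, chr22:41832855-41833154, plus strand: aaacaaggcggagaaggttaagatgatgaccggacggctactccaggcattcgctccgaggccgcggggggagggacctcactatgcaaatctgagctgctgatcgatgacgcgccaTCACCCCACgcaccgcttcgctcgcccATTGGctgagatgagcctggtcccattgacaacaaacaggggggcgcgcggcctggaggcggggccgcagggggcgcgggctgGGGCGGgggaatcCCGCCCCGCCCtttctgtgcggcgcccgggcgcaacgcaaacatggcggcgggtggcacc
INSIG1, chr7:155297628-155297927, plus strand: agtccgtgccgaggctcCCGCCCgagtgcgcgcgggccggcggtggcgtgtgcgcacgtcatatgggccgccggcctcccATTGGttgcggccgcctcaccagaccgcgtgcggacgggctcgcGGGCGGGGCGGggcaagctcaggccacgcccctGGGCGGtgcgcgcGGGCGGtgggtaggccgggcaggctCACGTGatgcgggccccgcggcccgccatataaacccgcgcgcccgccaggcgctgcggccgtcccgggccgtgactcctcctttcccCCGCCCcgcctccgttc
CYP51A1, chr7:92134428-92134727, minus strand: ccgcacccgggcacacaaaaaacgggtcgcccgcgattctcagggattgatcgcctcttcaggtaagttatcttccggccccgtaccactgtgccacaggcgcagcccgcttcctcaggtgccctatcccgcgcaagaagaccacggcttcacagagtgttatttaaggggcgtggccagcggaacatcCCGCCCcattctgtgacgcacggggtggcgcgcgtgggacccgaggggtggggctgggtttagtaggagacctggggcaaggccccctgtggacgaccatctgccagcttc
HMGCS1, chr5:43313363-43313662, minus strand: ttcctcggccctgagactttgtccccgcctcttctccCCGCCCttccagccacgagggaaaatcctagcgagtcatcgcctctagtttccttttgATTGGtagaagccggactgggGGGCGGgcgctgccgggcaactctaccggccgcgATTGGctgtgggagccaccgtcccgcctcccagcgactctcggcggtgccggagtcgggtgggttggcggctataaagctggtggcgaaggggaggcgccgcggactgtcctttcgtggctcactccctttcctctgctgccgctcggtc
SCD5, chr4:82798747-82799046, minus strand: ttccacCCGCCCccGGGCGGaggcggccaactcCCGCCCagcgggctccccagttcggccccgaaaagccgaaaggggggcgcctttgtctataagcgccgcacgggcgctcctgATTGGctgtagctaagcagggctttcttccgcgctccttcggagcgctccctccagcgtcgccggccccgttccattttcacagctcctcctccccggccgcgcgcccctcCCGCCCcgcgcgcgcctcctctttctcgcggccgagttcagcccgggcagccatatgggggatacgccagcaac

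The sterol regulatory element was in the window of 1 of the 35 genes, SREBF2, and in 1.13% of all 35116 windows. It begins at base 118 of the SREBF2 window. The E-box was in 6 of 35 (ELOVL4, ELOVL5, INSIG1, LSS, SC5DL and SCAP) and in 7.26% of all windows. The CCAAT box was in 26 of 35, 11 of 15 in the fatty acid arm, 13 of 15 in the sterol arm and 2 of 5 regulators, and in 34.6% of all windows. The GC box was in 33 of 35 and in 45.0% of all windows. A match is a run of letters and not a binding site, and other spellings of each element were not searched. The 35 genes have 47 windows, so counts over genes and shares over all windows are on different units and cannot be compared directly. Counts over windows describe these 300 bases and nothing beyond them.

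In level per gene length, both arms were well expressed. Means over the 15 libraries of the deposited FPKM, which are scaled to gene length, ran up to 312 for FADS2, the desaturase that opens polyunsaturated fatty acid synthesis. SCD, which makes oleate from stearate, followed at 165, then the elongase gene ELOVL5 at 149 and EBP, a sterol isomerase, at 146. FASN, the synthase that builds palmitate, ranked 5 with 104 FPKM, and ACLY, which supplies cytosolic acetyl-CoA, ranked 6 with 101. SREBF1 had 79.2 FPKM and SREBF2 had 24.1.

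At the low end were STARD4, a sterol carrier (2.59 FPKM), ACACB, the mitochondrial acetyl-CoA carboxylase (0.993), and ELOVL4, an elongase of very long chains (0.0308). ELOVL4 had 0 to 25 counts per library and passed the filter on low counts through its Scramble libraries, so no fold change of it is given. It stood at 0.0322, 0 and 0.156 CPM in KO_S404A, 0.111, 0 and 0.0202 CPM in KO_S47A, 0.0209, 0 and 0.0213 CPM in KO_WT, 0.0411, 0.0901 and 0.187 CPM in KO, against 0.325, 0.248 and 0.489 CPM in Scramble. The 39 genes passed the filter. Within a gene, the highest library exceeded the lowest by 1.27 times for PMVK and by 3.12 times for ELOVL6, leaving out ELOVL4. The heat map of the members by library shows these deviations.

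**Figure D1:**
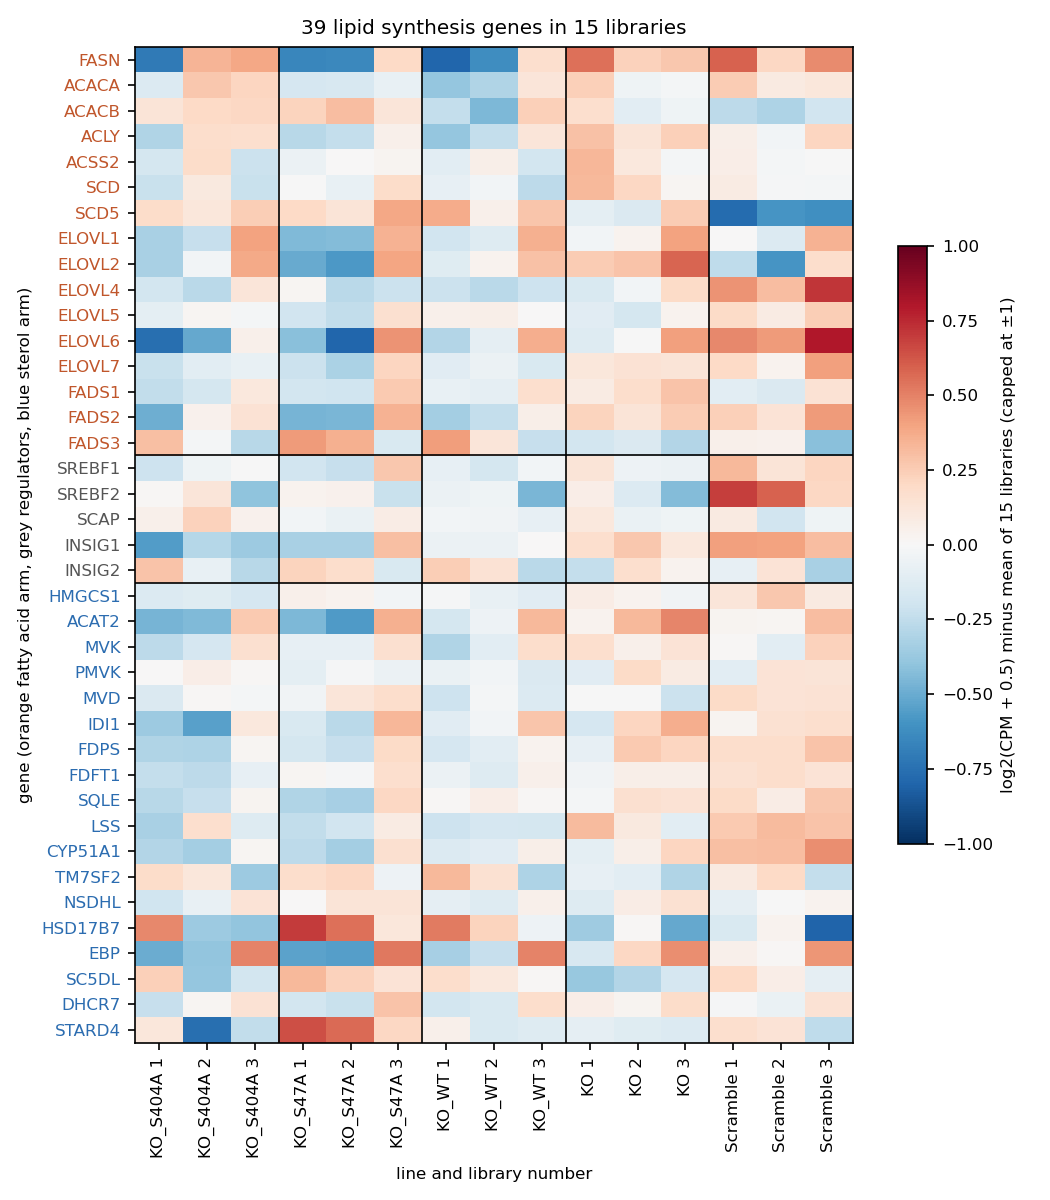
Deviation of each of the 39 genes (rows, grouped by arm) in each of the 15 libraries (columns), as log2(CPM + 0.5) minus the mean of the gene over all libraries, colour capped at ±1. SCD5 is low and SREBF2 high in the 3 Scramble libraries, FASN is low in 5 addback libraries, and EBP is high in the library numbered 3 of each line.

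Among the regulators, SREBF2 was lower in each of the 4 knockout-derived lines than in Scramble, by about the same amount, and passed the test without the block in KO_WT. It stood at 165, 179 and 124 CPM in KO_S404A, against 168, 169 and 141 CPM in KO_S47A. It stood at 157, 159.6 and 119 CPM in KO_WT, 172, 149 and 122 CPM in KO, against 266, 247 and 189 CPM in Scramble. The highest library of each of the 4 lines lay below the lowest of Scramble, so the groups did not overlap.

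The log2 fold change of SREBF2 against Scramble was −0.58 in KO_S404A (SE 0.18, adjusted p = 0.0998), −0.55 in KO_S47A (SE 0.18, adjusted p = 0.105), −0.69 in KO_WT (SE 0.18, adjusted p = 0.0499) and −0.67 in KO (SE 0.18, adjusted p = 0.069). The tests are edgeR's quasi-likelihood test with Benjamini-Hochberg adjustment over all genes tested, a gene is called at an adjusted p under 0.05, and the 4 lines share the Scramble libraries. With the replicate block SREBF2 fell in KO_S47A (adjusted p = 0.000321), KO_WT (4.98e-05) and KO (6.72e-05). Without the block, the call in KO_WT ended without Scramble 1 (adjusted p = 0.179), Scramble 2 (0.142) or any KO_WT library (0.0870 to 0.139), and in the fit of those 2 groups only (0.0834). SREBF2 lies on chromosome 22, whose 375 tested genes had a median log2 fold change of −0.28 in KO_S404A, −0.33 in KO_S47A, −0.38 in KO_WT and −0.32 in KO, each against Scramble, while the median of the other chromosomes lay between 0.02 and 0.03. In KO minus Scramble 60 of these 375 genes lay lower than SREBF2, and the part of the chromosome in its difference was not tested. In bulk RNA, fewer cells that express a gene and less RNA per cell cannot be told apart.

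INSIG1, which retains SCAP and is itself an SREBP target, was lower in KO_S404A than in Scramble. It stood at 133, 159.8 and 151 CPM in KO_S404A, against 156, 156 and 241 CPM in KO_S47A. It stood at 187, 187 and 195 CPM in KO_WT, 219, 235 and 209 CPM in KO, against 259.6, 258 and 242 CPM in Scramble. The 3 KO_S404A libraries lay below those of KO_WT, KO and Scramble, with KO_S404A 2 above KO_S47A 1 and 2, while KO_S47A 3 stood near Scramble 3.

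INSIG1 fell in KO_S404A against Scramble (log2 fold change −0.78, SE 0.14, adjusted p = 0.00777), and the call held without each library of these lines in turn. The log2 fold change against Scramble was −0.46 in KO_S47A (adjusted p = 0.0949), −0.42 in KO_WT (0.154) and −0.20 in KO (0.673). With the block INSIG1 also fell in KO_S47A (adjusted p = 0.0192) and KO_WT (0.0496). KO_S404A minus KO_WT gave −0.36 (95% interval −0.67 to −0.05, adjusted p = 0.547) and KO_S404A minus KO −0.58 (95% interval −0.89 to −0.27, adjusted p = 0.898).

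SREBF1 was not called in any of the 9 comparisons between lines, with or without the block. It stood at 426, 477 and 491 CPM in KO_S404A, 431, 419 and 592 CPM in KO_S47A, 466, 436 and 483 CPM in KO_WT, 538, 474 and 472 CPM in KO, against 616, 538 and 572 CPM in Scramble. The Scramble libraries lay above those of KO_S404A, KO_WT and KO and overlapped KO_S47A. Its log2 fold change was −0.31 in KO_S404A, −0.26 in KO_S47A, −0.32 in KO_WT and −0.22 in KO, against Scramble (adjusted p 0.225 to 0.530). The short SREBF1 entry, of 518 bases, had 300 to 486 counts per library and an adjusted p of at least 0.638 between lines.

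SCAP, the escort protein, stood at 106, 119.7 and 105 CPM in KO_S404A, 100, 97.4 and 108 CPM in KO_S47A, 100.4, 99.6 and 96.4 CPM in KO_WT, 110.0, 97.3 and 98.9 CPM in KO, against 108, 89.4 and 98.9 CPM in Scramble. INSIG2, the other INSIG gene, stood at 18.4, 14.2 and 12.2 CPM in KO_S404A, 17.6, 17.0 and 13.4 CPM in KO_S47A, 17.9, 16.6 and 12.3 CPM in KO_WT, 12.6, 16.9 and 15.4 CPM in KO, against 14.1, 16.5 and 11.8 CPM in Scramble. The lines overlapped in both genes, and neither was called between lines. The 95% interval of KO minus Scramble was −0.15 to 0.24 for SCAP and −0.33 to 0.49 for INSIG2, on the log2 scale.

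**Figure D2:**
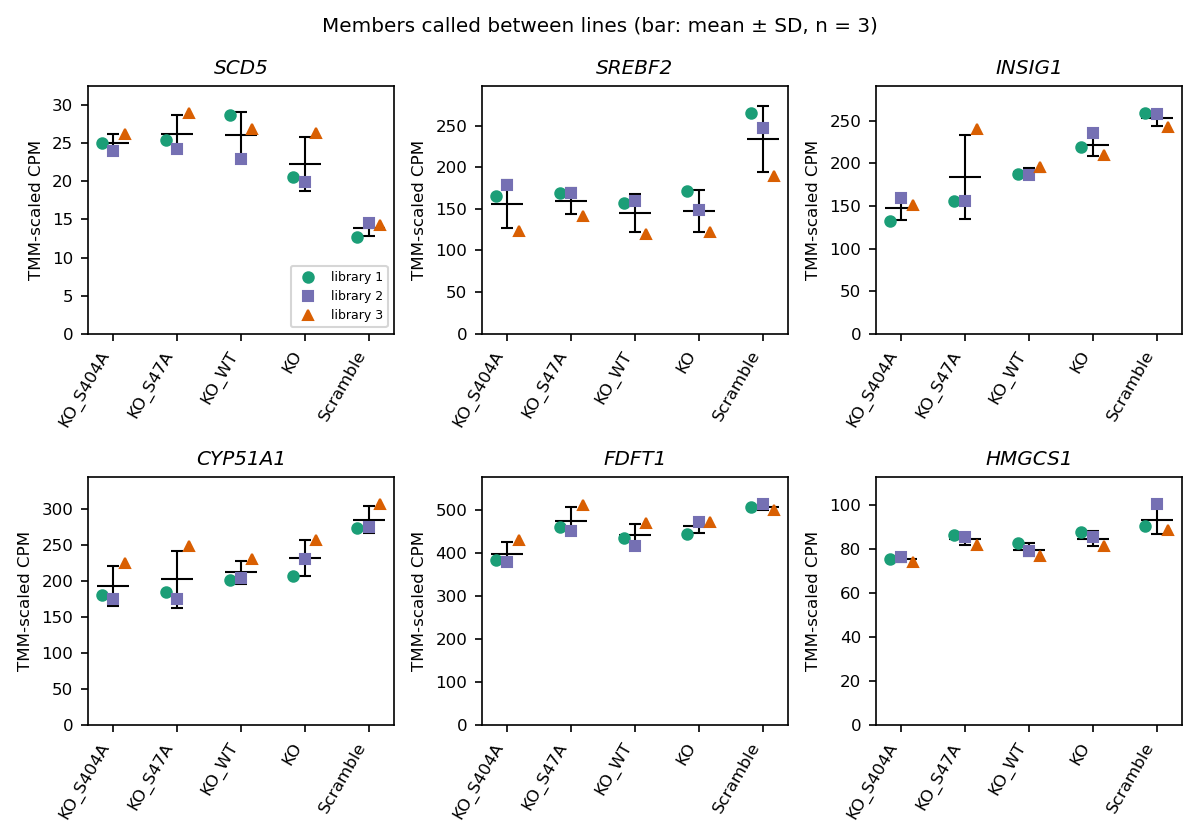
TMM-scaled CPM in each library of the 5 lines (points by library number; bar, mean ± SD, n = 3; axes start at 0) for the 6 members called between lines without the block. SCD5 is higher in each knockout-derived line than in Scramble, SREBF2 is lower, and INSIG1, CYP51A1, FDFT1 and HMGCS1 are lowest on average in KO_S404A.

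In the fatty acid arm, SCD5 was higher in the knockout and in the 3 addback lines than in Scramble, and was called in each of these 4 comparisons. SCD5 is a stearoyl-CoA desaturase that, like SCD, makes monounsaturated fatty acids. It stood at 25.1, 23.9 and 26.2 CPM in KO_S404A, against 25.5, 24.2 and 29.0 CPM in KO_S47A. It stood at 28.6, 22.9 and 26.9 CPM in KO_WT, 20.6, 19.9 and 26.4 CPM in KO, against 12.7, 14.5 and 14.2 CPM in Scramble. The lowest knockout-derived library, KO 2, lay above the highest Scramble library.

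SCD5 rose in KO_S404A (log2 fold change 0.86, SE 0.13, adjusted p = 0.00174), in KO_S47A (log2 fold change 0.92, SE 0.13, adjusted p = 0.00116), in KO_WT (log2 fold change 0.92, SE 0.13, adjusted p = 0.00107) and in KO (log2 fold change 0.69, SE 0.13, adjusted p = 0.00809), each against Scramble. The calls in the addback lines held without each library of the lines compared in turn, and that in KO ended without Scramble 1 (adjusted p = 0.0646). Between the addback lines and KO, SCD5 was not called, with log2 fold changes of 0.17 in KO_S404A, 0.23 in KO_S47A and 0.23 in KO_WT. SCD, expressed far higher, stood at 933, 1163 and 934 CPM in KO_S404A, 1084, 1034 and 1232 CPM in KO_S47A, 1027, 1066 and 907 CPM in KO_WT, 1363, 1256 and 1101 CPM in KO, against 1150, 1080 and 1070 CPM in Scramble. It was not called (KO minus Scramble 0.17, adjusted p = 0.622).

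The FASN libraries formed a low and a high range that did not follow the lines. It stood at 618, 1277 and 1322 CPM in KO_S404A, against 643, 644 and 1158 CPM in KO_S47A. It stood at 583, 656 and 1132 CPM in KO_WT, 1478, 1182 and 1219 CPM in KO, against 1520, 1166 and 1404 CPM in Scramble. Libraries 1 and 2 of KO_WT and KO_S47A and library 1 of KO_S404A were low, while the libraries numbered 3 of these lines, KO_S404A 2 and the KO and Scramble libraries were high.

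The log2 fold change of FASN against KO was −0.27 in KO_S404A (adjusted p = 0.898), −0.67 in KO_S47A (0.299) and −0.71 in KO_WT (0.625). With the block FASN fell in KO_S47A against KO (log2 fold change −0.74, SE 0.24, adjusted p = 0.0411). With the block it also fell against Scramble in KO_S47A (adjusted p = 0.0316) and KO_WT (0.0368). These calls rest on a shift of each library number taken as the same in all lines. FASN in library 3 differed from its line's other libraries by 0.57 in KO_S404A, 0.85 in KO_S47A and 0.87 in KO_WT (log2). It differed by −0.12 in KO and 0.08 in Scramble, so a shared shift is not shown for FASN. In KO minus Scramble the log2 fold change of FASN without the block was −0.08 (95% interval −0.74 to 0.59).

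ACACA, the cytosolic carboxylase that makes malonyl-CoA, stood at 303, 402 and 387 CPM in KO_S404A, 296, 298 and 316 CPM in KO_S47A, 255, 270.5 and 363 CPM in KO_WT, 393, 323 and 329 CPM in KO, against 398, 355 and 360.0 CPM in Scramble. ACLY stood at 426, 594 and 589 CPM in KO_S404A, 434, 446 and 544 CPM in KO_S47A, 402, 444 and 571 CPM in KO_WT, 644, 572 and 621 CPM in KO, against 548, 516 and 611 CPM in Scramble. In both genes libraries 1 and 2 of KO_WT and KO_S47A and library 1 of KO_S404A were lower than the KO libraries. Without the block neither was called between lines, and with it ACLY fell in KO_S47A against KO (log2 fold change −0.38, SE 0.11, adjusted p = 0.0256). ACACB was higher in KO_S47A than in Scramble with the block (log2 fold change 0.50, SE 0.14, adjusted p = 0.0247). It stood at 12.4, 13.0 and 13.1 CPM in KO_S404A, 13.3, 14.1 and 12.3 CPM in KO_S47A, 9.50, 8.13 and 13.4 CPM in KO_WT, 12.7, 10.5 and 11.0 CPM in KO, against 9.36, 9.03 and 9.84 CPM in Scramble. The KO_S47A libraries of ACACB lay above those of Scramble. ACSS2, which makes acetyl-CoA from acetate, was not called between lines and averaged 43.8 ± 7.09 CPM in KO_S404A, 45.4 ± 1.42 CPM in KO_S47A, 43.3 ± 3.78 CPM in KO_WT, 50.5 ± 6.47 CPM in KO and 46.1 ± 1.51 CPM in Scramble.

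Among the elongases ELOVL6, which extends palmitate, had its highest values in Scramble. It stood at 8.79, 10.5 and 15.8 CPM in KO_S404A, against 11.2, 8.57 and 21.0 CPM in KO_S47A. It stood at 12.3, 14.3 and 19.7 CPM in KO_WT, 13.9, 15.1 and 20.3 CPM in KO, against 21.4, 20.6 and 26.8 CPM in Scramble. KO_S47A 3 overlapped the Scramble libraries, and the library numbered 3 was the highest of each line.

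The log2 fold change of ELOVL6 against Scramble was −0.97 in KO_S404A (adjusted p = 0.117), −0.76 in KO_S47A (0.198), −0.57 in KO_WT (0.422) and −0.48 in KO (0.598). With the block it fell in KO_S47A (adjusted p = 0.00157), KO_WT (0.0166) and KO (0.0472).

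ELOVL2, an elongase of polyunsaturated fatty acids, stood at 19.1, 23.6 and 31.4 CPM in KO_S404A, 16.8, 16.0 and 31.7 CPM in KO_S47A, 22.1, 24.7 and 29.6 CPM in KO_WT, 28.7, 29.4 and 36.2 CPM in KO, against 20.1, 15.8 and 27.2 CPM in Scramble. Its lowest KO library lay above the highest Scramble library. With the block it rose in KO against Scramble (log2 fold change 0.60, SE 0.13, adjusted p = 0.0106) and fell in KO_S47A against KO (log2 fold change −0.60, SE 0.13, adjusted p = 0.00783). Without the block neither call was made (adjusted p = 0.389 and 0.309).

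Of the other fatty acid members, ELOVL1, an elongase of saturated chains, stood at 104, 111 and 172 CPM in KO_S404A, 95.8, 96.3 and 166 CPM in KO_S47A, 114, 119 and 167 CPM in KO_WT, 128, 134 and 172 CPM in KO, against 130.4, 118 and 166 CPM in Scramble. The desaturase gene FADS1 stood at 251, 264 and 322 CPM in KO_S404A, 262, 260.4 and 359 CPM in KO_S47A, 284, 280.5 and 336 CPM in KO_WT, 316, 338 and 364 CPM in KO, against 278, 270.5 and 331 CPM in Scramble. In both, libraries 1 and 2 of KO_S47A lay below the KO libraries, and KO_S47A 3 lay within their range. FADS3 stood at 30.0, 23.9 and 19.9 CPM in KO_S404A, 32.6, 31.1 and 21.7 CPM in KO_S47A, 32.6, 26.4 and 20.6 CPM in KO_WT, 21.3, 21.9 and 19.7 CPM in KO, against 25.1, 25.0 and 18.1 CPM in Scramble, with libraries 1 and 2 of KO_S47A above the KO libraries.

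ELOVL1 (log2 fold change −0.31) and FADS1 (−0.22) fell and FADS3 (0.41) rose in KO_S47A against KO with the block (adjusted p 0.0126 to 0.0471). Without the block and leaving out 1 library in turn, the log2 fold change of KO_S47A minus KO ran from −0.58 without KO_S47A 3 to −0.13 without KO_S47A 1 for ELOVL1, from −0.37 without KO_S47A 3 to −0.11 without KO_S47A 2 for FADS1, and from −0.93 without KO_S47A 3 to −0.36 without KO_S47A 2 for ELOVL2. ELOVL7 stood at 166, 180.1 and 184 CPM in KO_S404A, 167, 155 and 225 CPM in KO_S47A, 179, 186 and 174 CPM in KO_WT, 209, 214 and 211 CPM in KO, against 223, 199 and 257 CPM in Scramble. FADS2 stood at 1060, 1534 and 1641 CPM in KO_S404A, 1081, 1086 and 1892 CPM in KO_S47A, 1174, 1261 and 1546 CPM in KO_WT, 1734, 1627 and 1775 CPM in KO, against 1753, 1637 and 1995 CPM in Scramble. In both, libraries 1 and 2 of KO_S47A lay below the Scramble libraries, and KO_S47A 3 lay within their range. Against Scramble, ELOVL7 (−0.32) and FADS2 (−0.44) fell and FADS3 (0.32) rose in KO_S47A with the block (adjusted p 0.0366 to 0.0480). Without KO_S47A 3 and without the block, that of ELOVL7 was −0.50 and that of FADS2 −0.74, and FADS3 was at 0.18 without Scramble 3. ELOVL5 was not called between lines in either fit.

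In the sterol arm, 3 enzymes were lower in KO_S404A than in Scramble, and 0 were called in the other comparisons between lines without the block. CYP51A1 removes a methyl group from lanosterol. It stood at 181, 175 and 225 CPM in KO_S404A, against 186, 175 and 248 CPM in KO_S47A. It stood at 202, 205 and 231 CPM in KO_WT, 207, 231 and 257 CPM in KO, against 274, 276 and 307 CPM in Scramble. The Scramble libraries lay above those of the other 4 lines.

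CYP51A1 fell in KO_S404A against Scramble (log2 fold change −0.56, SE 0.14, adjusted p = 0.0461). The log2 fold change was −0.49 in KO_S47A (adjusted p = 0.069), −0.42 in KO_WT (0.135) and −0.30 in KO (0.392). With the block it fell in these 3 lines too (adjusted p = 0.000741 in KO_S47A, 0.0031 in KO_WT and 0.0291 in KO).

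FDFT1, squalene synthase, is the first enzyme committed to sterols. It stood at 385, 380.4 and 429.8 CPM in KO_S404A, against 462, 451 and 511 CPM in KO_S47A. It stood at 436, 417 and 471 CPM in KO_WT, 445, 474 and 474 CPM in KO, against 507, 515 and 499.8 CPM in Scramble. The KO_S404A libraries were below those of KO and Scramble, and KO_S47A 3 reached the Scramble level.

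HMGCS1 makes HMG-CoA at the head of the mevalonate pathway. It stood at 75.7, 76.5 and 74.2 CPM in KO_S404A, against 86.5, 85.5 and 81.7 CPM in KO_S47A. It stood at 82.8, 79.3 and 76.9 CPM in KO_WT, 87.8, 85.4 and 81.3 CPM in KO, against 90.7, 100.5 and 88.7 CPM in Scramble. The 3 KO_S404A libraries lay below the libraries of the other 4 lines, and the Scramble libraries above them.

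In KO_S404A against Scramble, FDFT1 (log2 fold change −0.35, SE 0.08, adjusted p = 0.0382) and HMGCS1 (log2 fold change −0.31, SE 0.07, adjusted p = 0.0411) fell. The calls of CYP51A1, FDFT1 and HMGCS1 each ended without any 1 Scramble library (adjusted p 0.0652 to 0.155), KO_S404A 1 or 2 (0.0791 to 0.159), and in the fit of the 2 groups only (0.127 to 0.292). That of HMGCS1 also ended without KO_S404A 3 (0.0948). Without the filter on low counts FDFT1 (0.0553) and HMGCS1 (0.0535) were lost. With the block HMGCS1 fell in KO_WT against Scramble (adjusted p = 0.0427).

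LSS, which closes squalene epoxide to lanosterol, stood at 59.2, 83.3 and 67.8 CPM in KO_S404A, against 62.4, 65.0 and 78.5 CPM in KO_S47A. It stood at 64.2, 65.7 and 65.5 CPM in KO_WT, 92.4, 79.3 and 68.8 CPM in KO, against 89.1, 92.6 and 90.6 CPM in Scramble. The Scramble libraries lay above all others but KO 1. The log2 fold change against Scramble was −0.37 in KO_S404A (adjusted p = 0.172), −0.40 in KO_S47A (0.116), −0.48 in KO_WT (0.0706) and −0.18 in KO (0.682), and with the block LSS fell in KO_S47A (0.0358) and KO_WT (0.0242).

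SQLE, the epoxidase before LSS, stood at 49.05, 50.5 and 60.6 CPM in KO_S404A, 48.1, 47.04 and 68.7 CPM in KO_S47A, 59.8, 62.1 and 59.97 CPM in KO_WT, 58.7, 66.7 and 65.9 CPM in KO, against 67.8, 62.6 and 71.8 CPM in Scramble. FDPS, which makes farnesyl diphosphate, stood at 97.4, 96.8 and 122 CPM in KO_S404A, 106, 102 and 138 CPM in KO_S47A, 107, 112 and 123 CPM in KO_WT, 113, 144 and 139 CPM in KO, against 136, 136 and 146 CPM in Scramble. Both fell in KO_S47A against Scramble with the block (SQLE −0.32, adjusted p = 0.0438; FDPS −0.28, adjusted p = 0.042) and were called in no comparison between lines without it. Without KO_S47A 3 and without the block the log2 fold changes were −0.51 for SQLE and −0.43 for FDPS. FDPS and HSD17B7 have near-identical copies elsewhere in the genome, so their counts are uncertain as far as shared reads were split or dropped.

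HSD17B7, STARD4 and SC5DL stood higher in KO_S47A than in KO. HSD17B7, a reductase of sterol demethylation, stood at 68.6, 38.0 and 37.2 CPM in KO_S404A, 80.0, 72.1 and 53.0 CPM in KO_S47A, 70.4, 57.3 and 47.4 CPM in KO_WT, 38.3, 49.3 and 34.2 CPM in KO, against 43.9, 50.4 and 27.9 CPM in Scramble. STARD4 stood at 10.3, 5.42 and 7.95 CPM in KO_S404A, 15.1, 14.3 and 11.1 CPM in KO_S47A, 9.88, 8.49 and 8.66 CPM in KO_WT, 8.92, 8.70 and 8.58 CPM in KO, against 10.7, 10.5 and 7.88 CPM in Scramble. SC5DL, the sterol desaturase now named SC5D, stood at 126, 81.9 and 94.4 CPM in KO_S404A, 134, 126 and 118 CPM in KO_S47A, 121, 116 and 108 CPM in KO_WT, 82.5, 87.6 and 95.5 CPM in KO, against 123, 112 and 101 CPM in Scramble. The KO_S47A libraries lay above those of KO in each of the 3 genes.

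With the block HSD17B7 (log2 fold change 0.73, SE 0.16, adjusted p = 0.00819), STARD4 (log2 fold change 0.61, SE 0.16, adjusted p = 0.0161) and SC5DL (log2 fold change 0.51, SE 0.11, adjusted p = 0.0084) rose in KO_S47A against KO, as did TM7SF2, a sterol reductase (0.27, adjusted p = 0.038). TM7SF2 stood at 88.5, 84.0 and 60.4 CPM in KO_S404A, 87.7, 89.8 and 75.2 CPM in KO_S47A, 97.4, 86.3 and 62.7 CPM in KO_WT, 73.6, 72.1 and 63.2 CPM in KO, against 82.7, 89.5 and 65.8 CPM in Scramble. ACAT2, which makes acetoacetyl-CoA, fell (−0.50, adjusted p = 0.0109). It stood at 48.6, 49.4 and 80.8 CPM in KO_S404A, 49.4, 45.3 and 86.7 CPM in KO_S47A, 59.8, 65.2 and 84.5 CPM in KO_WT, 69.3, 84.5 and 94.7 CPM in KO, against 68.9, 68.6 and 83.6 CPM in Scramble. Libraries 1 and 2 of KO_S47A lay below the KO libraries and KO_S47A 3 within their range, and without the block the log2 fold change was −0.80 without KO_S47A 3 and −0.27 without KO_S47A 2. Without the block 0 of these were called (adjusted p 0.274 to 0.386). HSD17B7 also rose in KO_S47A against Scramble with the block (0.76, adjusted p = 0.00604).

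IDI1, the isomerase of isopentenyl diphosphate, stood at 76.2, 67.2 and 106 CPM in KO_S404A, 88.1, 81.4 and 123 CPM in KO_S47A, 90.7, 96.3 and 119 CPM in KO_WT, 87.2, 114 and 126 CPM in KO, against 99.99, 109 and 110.2 CPM in Scramble. DHCR7, a reductase of the last steps to cholesterol, stood at 191, 228 and 249 CPM in KO_S404A, 198, 192 and 274 CPM in KO_S47A, 198, 202 and 254 CPM in KO_WT, 235, 229 and 255 CPM in KO, against 223, 215 and 248 CPM in Scramble. Neither was called in a comparison of KO_S47A, KO_WT, KO and Scramble in either fit. The kinases MVK and PMVK, the decarboxylase MVD, NSDHL and EBP were likewise not called between these lines.

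Counted over the members, few differed between lines. In KO_S404A minus Scramble 5 of 39 were called, where 3.11% of all genes tested were called. Of these 5, 1 was higher (1.34% of all genes) and 4 lower (1.77%). In KO_S47A minus Scramble 1 was called (3.82% of all genes), in KO_WT minus Scramble 2 (3.47%) and in KO minus Scramble 1 (2.69%). With the block it was 15 in KO_S47A (19.5% of all genes), 9 in KO_WT (10.0%) and 5 in KO (8.29%), ELOVL4 being among those of KO_S47A and KO_WT. Tested over the 5 lines at once, without the block, 1 member differed, SCD5 (adjusted p = 0.00392), where 2.37% of all genes did.

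Between the addback lines and KO, edgeR called 0 of 39 members in KO_S404A (0.0211% of all genes), 0 in KO_S47A (0.00702%) and 0 in KO_WT (0.0281%). At an unadjusted p under 0.05 there were 5 members in each, against 4.08%, 16.8% and 7.58% of all genes in KO_S404A, KO_S47A and KO_WT, and DESeq2 called 0 in each. With the block 11 members were called in KO_S47A minus KO, where 22.1% of all genes were, 5 higher (10.6% of all genes) and 6 lower (11.5%). In KO_S47A minus KO_WT and in KO_S404A minus KO_WT edgeR called 0 of 39 members and 0% of all genes without the block, with 3 and 1 members at an unadjusted p under 0.05 (2.17% and 8.70% of all genes) and 0 by DESeq2. The block called 0 members in KO_S47A minus KO_WT (0.0211% of all genes), KO_S404A minus KO_WT (0%) and KO_WT minus KO (0.105%). The 95% intervals of the members in these comparisons reached 0.31 to either side of the log2 fold change at the median.

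**Figure D3:**
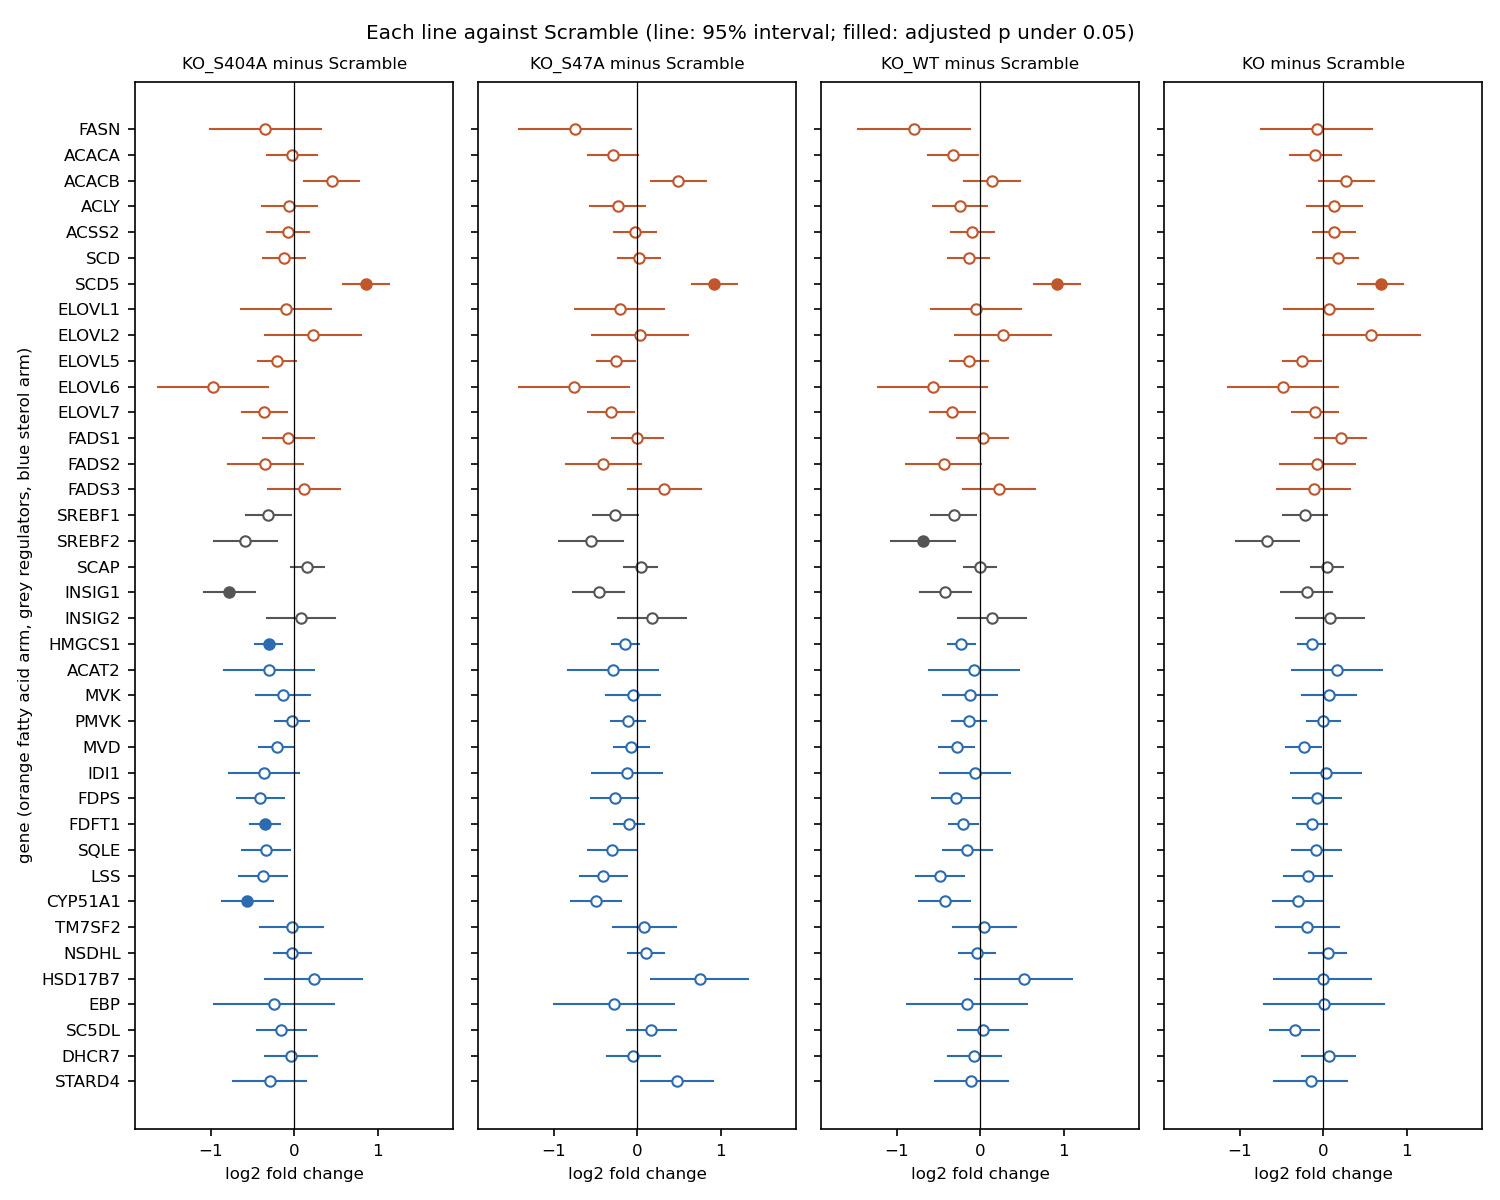
Log2 fold change of 38 members (ELOVL4 left out) in each knockout-derived line against Scramble, with 95% intervals; filled points have an adjusted p under 0.05 without the block. SCD5 lies to the right in the 4 panels and SREBF2 to the left. Of the 18 sterol genes (blue) 17 lie below 0 in KO_S404A, 13 in KO_S47A, 15 in KO_WT and 11 in KO.

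Against Scramble, the sterol arm had its lowest median in KO_S404A and the fatty acid arm in KO_S47A. The median log2 fold change in KO_S404A minus Scramble was −0.27 in the sterol arm, −0.09 in the fatty acid arm and −0.31 over the regulators, against 0.03 over all genes. In that comparison 17 of 18 sterol genes and 12 of 16 fatty acid genes, ELOVL4 among them, lay below 0, as did 45.3% of all genes. In KO_S47A, KO_WT and KO 13, 15 and 11 sterol genes and 10, 11 and 8 fatty acid genes lay below 0 against Scramble. Of all genes 47.4%, 48.2% and 46% did. In KO_S47A minus Scramble the medians were −0.10 in the sterol arm and −0.22 in the fatty acid arm, in KO_WT minus Scramble −0.13 and −0.14, and in KO minus Scramble −0.08 and −0.001. Without KO_S404A 2 the sterol median of KO_S404A was −0.14, and without KO_S47A 3 the fatty acid median of KO_S47A was −0.36. The fatty acid median of KO_S47A lay at −0.13 without KO_S47A 1, at −0.14 without KO_S47A 2 and at −0.11 without Scramble 3, so its order with KO_WT is not settled. The fatty acid median of KO_S404A ran from −0.03 without KO_S404A 1 to −0.18 without KO_S404A 2. In KO minus Scramble the fatty acid median ran from −0.05 to 0.07 and the sterol median from −0.14 to 0.00 when 1 library was left out. The difference between arms was not tested.

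Against KO, the fatty acid arm had medians of −0.23 in KO_S404A, −0.21 in KO_S47A and −0.23 in KO_WT. The sterol arm had medians of −0.18 in KO_S404A, −0.11 in KO_S47A and −0.09 in KO_WT, and all genes 0.01, 0.01 and 0.00. In KO_S47A and KO_WT 13 of 16 fatty acid genes lay below 0 against KO, and in KO_S404A 11 of 16, ELOVL4 being among them in each line. Of the 18 sterol genes 14 lay below 0 in KO_S404A, 11 in KO_S47A and 14 in KO_WT. Of all genes 47%, 49.2% and 49.4% lay below 0 in these lines. The 3 lines share the KO libraries. The fatty acid median was −0.08 in KO_S404A without its library 1, and in KO_S47A it was −0.13 without library 1, −0.12 without library 2 and −0.38 without library 3. The sterol median was −0.12 in KO_S404A without library 1, ran from −0.15 to −0.02 in KO_S47A and from −0.16 to −0.05 in KO_WT when 1 library was left out.

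Library by library, the mean of the 16 fatty acid genes relative to all libraries lay at −0.22, 0.01 and 0.10 in KO_S404A, −0.17, −0.22 and 0.17 in KO_S47A and −0.16, −0.14 and 0.07 in KO_WT. It lay at 0.12, 0.05 and 0.17 in KO and 0.08, −0.03 and 0.18 in Scramble, on the log2(CPM + 0.5) scale. ELOVL4, which passed the filter through its Scramble libraries, is among the 16. Without ELOVL4 the mean lay at −0.226, 0.025 and 0.1 in KO_S404A and −0.181, −0.222 and 0.194 in KO_S47A. It then lay at −0.152, −0.128 and 0.09 in KO_WT, 0.135, 0.054 and 0.167 in KO and 0.055, −0.052 and 0.14 in Scramble. The mean of the 18 sterol genes lay at −0.15, −0.22 and −0.01 in KO_S404A, −0.03, −0.05 and 0.17 in KO_S47A, −0.05, −0.05 and 0.03 in KO_WT, −0.06, 0.07 and 0.06 in KO and 0.09, 0.11 and 0.10 in Scramble. In the addback lines libraries 1 and 2 were low in the fatty acid arm apart from KO_S404A 2, and the library numbered 3 was the highest of its line in both arms. The sterol arm was steady in Scramble, and KO_S404A 2 was lowest in the sterol arm with its fatty acid arm near the mean of all libraries.

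**Figure D4:**
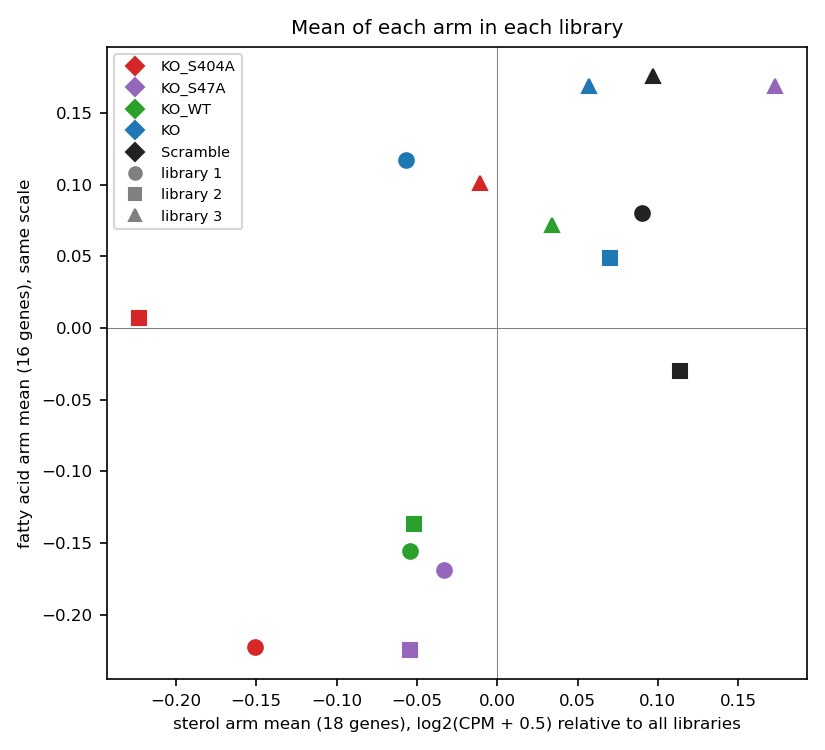
Mean log2(CPM + 0.5), relative to the mean of all libraries, of the 18 sterol genes (x axis) and the 16 fatty acid genes (y axis) in each of the 15 libraries; colour gives the line and shape the library number. The libraries numbered 3 (triangles) lie above 0 in the fatty acid arm in the 5 lines, and KO_S404A 2 has the lowest sterol mean, −0.22, beside a fatty acid mean of 0.01. ELOVL4 is among the 16 fatty acid genes.

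Members also differed by replicate number, in a test with more libraries on each side than those between lines. Counts of members from these 2 kinds of test are therefore not on a like footing. Between the libraries numbered 3 and those numbered 1 and 2, with the line in the fit, 22 of 39 members differed, where 46.1% of all genes did, 17 higher (22.4% of all genes) and 5 lower (23.7%). Read against that share, the count of 22 is close to the background. By arm, 8 fatty acid genes rose and 1 fell of 16, 9 sterol genes rose and 2 fell of 18, and 2 of 5 regulators fell. The median was 0.20 in the fatty acid arm and 0.12 in the sterol arm, against −0.02 over all genes.

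EBP moved furthest among the risen (log2 difference 0.74, SE 0.09, adjusted p = 4.24e-06). It stood at 152, 163 and 303 CPM in KO_S404A, against 148, 147 and 310.0 CPM in KO_S47A. It stood at 171, 183 and 304 CPM in KO_WT, 192, 248 and 297 CPM in KO, against 223, 217 and 293 CPM in Scramble. In each of the 5 lines library 3 lay above libraries 1 and 2, and the lines overlapped.

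The elongases ELOVL6 (log2 difference 0.64), ELOVL1 (0.56) and ELOVL2 (0.56) rose, as did ACAT2 (0.53), IDI1 (0.37), FADS2 (0.37) and FADS1 (0.29), with an adjusted p of at most 0.00333. Fallen were HSD17B7 (−0.52, SE 0.11), FADS3 (−0.42, SE 0.07), SREBF2 (−0.40, SE 0.05), TM7SF2 (−0.38, SE 0.06) and INSIG2 (−0.31, SE 0.09). The library numbered 3 was the highest of its line in all 5 lines for 11 members (ELOVL1, ELOVL2, ELOVL6, FADS1, FADS2, ACAT2, IDI1, CYP51A1, NSDHL, EBP and DHCR7), as it was for 16.3% of all genes tested. It was the lowest in all 5 lines for 5 members (FADS3, SREBF2, HMGCS1, TM7SF2 and HSD17B7), against 15.4% of all genes.

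**Figure D5:**
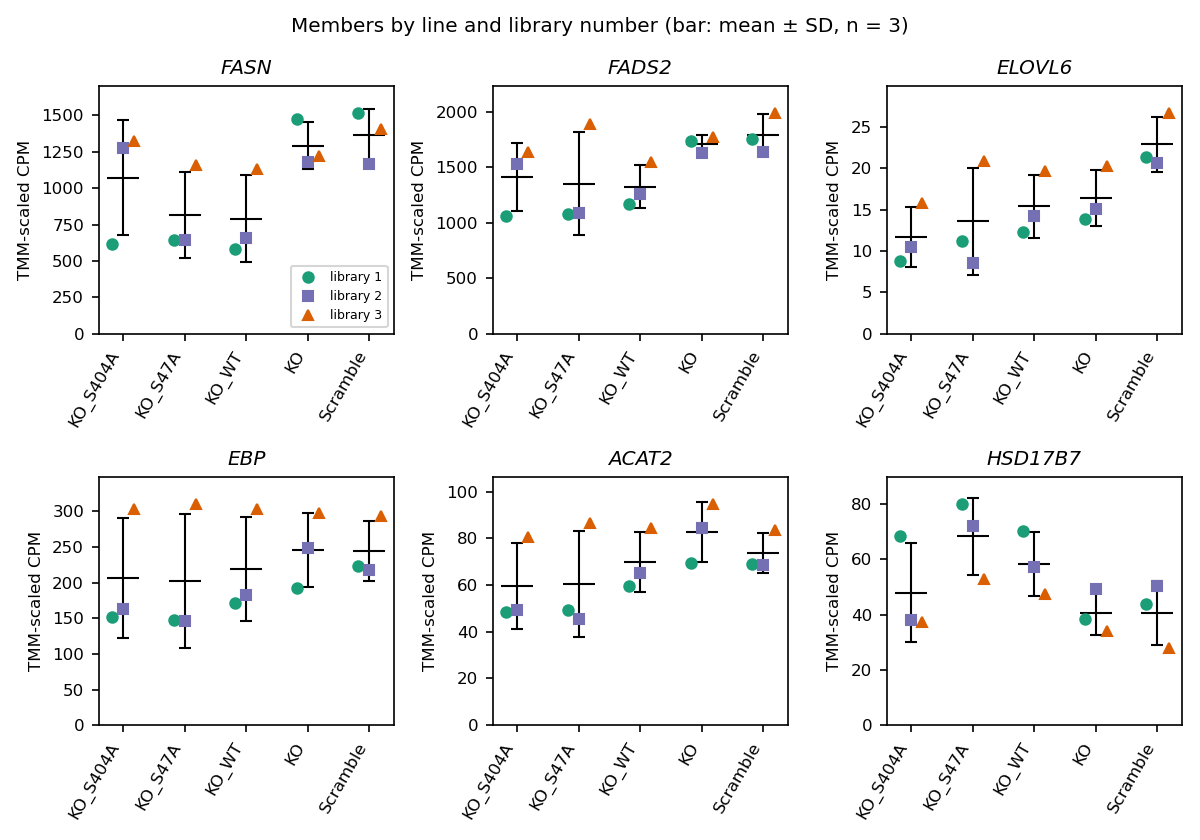
TMM-scaled CPM in each library of the 5 lines (colour and shape give the library number; bar, mean ± SD, n = 3; axes start at 0) for FASN, for 4 members that are highest in library 3 of each line (FADS2, ELOVL6, EBP and ACAT2) and for HSD17B7. FASN is at 583 to 656 CPM in 5 addback libraries and at 1132 to 1520 CPM elsewhere, and HSD17B7 is lowest in library 3 of each line.

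A fit split by kind of line was chosen after seeing the data. In it 23 members differed in library 3 in the 3 addback lines (42.9% of all genes) and 6 in KO and Scramble (11.8%). The addback lines supply more libraries, and the median half-width of the members' intervals was 0.18 there and 0.223 in KO and Scramble. These counts are therefore not on a like footing, and the gap between them is not read as a difference between the kinds of line. For FASN the log2 difference was 0.74 in the addback lines (SE 0.16, adjusted p = 0.00191) and −0.03 in KO and Scramble (SE 0.20, adjusted p = 0.948). The difference between these was 0.77 (SE 0.26, adjusted p = 0.309), which did not pass. By edgeR 0 of 39 members and 0% of all genes passed that test, with 8 members and 10.3% of all genes at an unadjusted p under 0.05. Without KO_S404A 2, 3 members passed (3.58% of all genes), FASN (log2 difference 0.95, adjusted p = 0.00232), EBP (0.53, 0.0186) and FADS2 (0.44, 0.0426), and without any other library 0. DESeq2 was not run on this split. KO_S404A 2, at 1277 CPM, was the only library 1 or 2 of an addback line with high FASN. The split was drawn from these same libraries, so the 3 calls made without KO_S404A 2 are no independent test of it.

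Of other genes of the pathway, few were called between lines without the block. Against Scramble 3.11% of all genes were called in KO_S404A, 3.82% in KO_S47A, 3.47% in KO_WT and 2.69% in KO. SREBP processing and sterol-induced degradation had 0 of 7 called, and liver X receptor, efflux and storage genes 0 of 6, in each of the 9 comparisons. In the isoprenoid branch 1 of 5 fell against Scramble in each of the 4 lines. That was PDSS2, a subunit of the synthase of the coenzyme Q side chain, at 32.0 ± 0.867 CPM in KO_S404A, 31.4 ± 0.884 CPM in KO_S47A, 31.6 ± 1.93 CPM in KO_WT and 33.7 ± 0.855 CPM in KO, against 43.8 ± 3.01 CPM in Scramble (SD, n = 3 each). Its log2 fold change was −0.45 in KO_S404A (adjusted p = 0.00535), −0.48 in KO_S47A (0.00363), −0.47 in KO_WT (0.00431) and −0.38 in KO (0.0193).

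Of 13 genes of fatty acid supply, activation and elongation partners, 1 fell in each addback line against Scramble and 0 in KO. LPIN1, a phosphatidate phosphatase of triglyceride synthesis, had a log2 fold change of −0.49 in KO_S404A (adjusted p = 0.0414), −0.46 in KO_S47A (0.0481) and −0.59 in KO_WT (0.0129). 

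With the block NR1H3, which encodes liver X receptor alpha, fell against Scramble in KO_S47A (log2 fold change −0.28, adjusted p = 0.0196), KO_WT (−0.28, 0.0321) and KO (−0.43, 0.00269). TMEM97, a sterol-binding membrane protein, fell in KO_S47A against Scramble (−0.33, 0.0475), as did MYLIP (−0.25, 0.0494), and against KO (−0.50, 0.00774), while the sterol exporter gene ABCG1 (0.42, 0.0195) and the other liver X receptor gene NR1H2 (0.34, 0.0220) rose in KO_S47A against KO. Of the 13 genes of fatty acid supply, 1 rose and 2 fell in KO_S47A against Scramble, 2 rose and 1 fell in KO_S47A against KO, 3 fell in KO_WT against Scramble and 1 fell in KO against Scramble. Of the 7 processing genes 1 fell in KO_S47A against KO and 1 rose in KO_WT against Scramble, and PDSS1 fell in KO_S47A against KO and Scramble. With the block 19.5% of all genes were called in KO_S47A minus Scramble and 22.1% in KO_S47A minus KO. The shares were 10.0% in KO_WT minus Scramble and 8.29% in KO minus Scramble. Beside these shares, the calls in such short lists are not read as a result about the lists.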

How the data were processed

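Poly(A) RNA was sequenced in 15 libraries. Per the labels' protocols RNA was purified on columns and a directional kit was used for the libraries, and the submitters' processing notes name CASAVA and STAR without versions. For each library the authors deposited unnormalized read counts, 1 whole number per gene. The authors also deposited FPKM, which were used for levels between genes. The sources used here do not give the genome build, the annotation or the strand setting used in counting, so antisense partners cannot be told apart. Unassigned reads, 13.2% to 20.6% of each library, were left out.

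Counts were filtered with filterByExpr (14246 genes kept), scaled by TMM and fitted with edgeR 4.0.16 in R 4.3.3, with 1 mean per line over all 15 libraries (10 residual degrees of freedom) and Benjamini-Hochberg adjustment within each comparison. The SE was derived from the log2 fold change and the F statistic (its size over the root of F), and intervals are 95%. A pseudocount of 0.5 CPM was used for means of arms. Alternatives were RLE size factors, no filter, DESeq2 1.42.0, the replicate block, libraries numbered 1 and 2 only, the 2 groups only and leaving out each library.

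Deviations of same-numbered libraries from their line means correlated above 0.1 in every pair of 7 comparisons, and there the numbers were taken as pairing the samples, from the data and not from the labels. A correlation fell below 0.1 in KO_S404A minus KO (0.0197 for number 2) and KO_S404A minus Scramble (0.0743). The deviations of a gene within a line cancel out, so a shift shared by libraries numbered 3 also makes those numbered 1 and 2 correlate. These correlations therefore cannot show that numbers 1 and 2 pair across lines. Of the marker lists, 1 gene is not reported here. The members and lists were chosen with earlier results of these data known. Values by library are given for members called in any comparison in either fit, for regulators and for lead enzymes. The fit was tested on simulated data for KO minus Scramble, where it called 67.7% of 99 genes changed by 1 on the log2 scale, 4.0% of 100 changed by 0.5 and 0.0288% of 13884 unchanged genes.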

Additional observations from a re-analysis of the deposited data

How the results depend on the processing

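Counts of members called between lines moved with the replicate number and with single libraries. For members in comparisons where the fit with or without the block called them, 0 of 612 values under alternatives changed sign. Members chosen for a call were unlikely to change sign from the start. Of the 612 values 488 kept their side of the threshold, 28 lost the call and 96 gained it. In each count the share of all genes tested stands in parentheses, except for the fits that leave out 1 library. RLE size factors gave 2 members over the 5 lines at once (2.53%), and leaving out the filter gave 2 there (1.73%) and 3 in KO_S404A minus Scramble (2.03%). The fit of the 2 groups only gave 2 members in KO_S404A minus Scramble (0.980%) and 4 in KO_WT minus Scramble (2.52%). DESeq2 gave 7 in KO_S404A minus Scramble (6.28%), where ELOVL6 and SREBF2 were added, 6 in KO_S47A minus Scramble (7.67%), 5 in KO_WT minus Scramble (6.09%), 2 in KO minus Scramble (5.14%) and 8 over the 5 lines (7.55%). ELOVL4, which passed the filter through its Scramble libraries, is 1 of the 4 and 1 of the 5 members in KO_WT minus Scramble, leaving 3 and 4.

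With the replicate block the counts were 11 in KO_S404A minus Scramble (10.7%), 15 in KO_S47A minus Scramble (19.5%), 9 in KO_WT minus Scramble (10.0%), 5 in KO minus Scramble (8.29%), 11 in KO_S47A minus KO (22.1%) and 18 over the 5 lines (22.9%). ELOVL4 is among the 15, the 9 and the 18. In KO_S404A minus Scramble the numbers are not shown to pair the libraries, and the block there added ELOVL6, ELOVL7, FDPS, IDI1, SQLE and SREBF2, all lower. In KO_S404A minus KO the block called 0 (0.0983%). It changed no call of a member in the other comparisons than those given. The libraries numbered 1 and 2 only gave 12 in KO_S404A minus Scramble (6.84%), 17 in KO_S47A minus Scramble (15.0%), 6 in KO_WT minus Scramble (5.11%), 3 in KO minus Scramble (5.37%), 17 in KO_S47A minus KO (21.6%), 2 in KO_S404A minus KO (2.81%; ACAT2 and INSIG1, both lower) and 16 over the 5 lines (17.5%).

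Leaving out 1 library gave 2 to 4 members in KO_S404A minus Scramble, 1 to 10 in KO_S47A minus Scramble (10 without KO_S47A 3), 1 to 2 in KO_WT minus Scramble, 0 to 2 in KO minus Scramble (0 without Scramble 1) and 0 to 4 over the 5 lines (4 without KO_S47A 3). The share of all genes is not given for these counts, so they are not read as a result about the members. The causes were not tested. At 3 libraries a line, changes near 0.5 on the log2 scale were seldom called in simulated data. The simulation changed 99 genes by 1 and 100 by 0.5, while 383 genes were called in KO minus Scramble. Its shares therefore need not hold for the members, and smaller changes of HMGCS1 and FDFT1 were called in KO_S404A minus Scramble.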
